A study of Mus musculus with 32 samples.

Results

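The semaphorins, their plexin receptors and the neuropilin coreceptors were described in mouse spinal cord after injury. A gene was taken as a member where its symbol was Sema followed by a digit and a letter from a to g, Plxn followed by a letter from a to d and a digit, or Nrp1 or Nrp2. The rule uses no expression value, though the family was picked with earlier results of these data known. The rule found 31 members among the 23420 genes of the count table, made up of 20 semaphorins, 9 plexins and 2 neuropilins. All 31 passed the filter on low counts, so every member was among the 16314 genes tested. A gene listed only as Nrp, which RefSeq holds as a gene of its own, did not match.

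Semaphorins are secreted or membrane-bound guidance cues, first known for repelling growing axons. They act through plexins, whose intracellular part switches off small GTPases of the Ras and Rap families and so loosens the cytoskeleton and adhesion of the responding cell. Most secreted class 3 semaphorins reach plexins through neuropilin 1 or neuropilin 2, which are also coreceptors for vascular endothelial growth factors. In the injured cord the family is known for inhibitory cues made by scar-forming cells, and in vessels and immune cells for steering sprouting and migration.

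Bulk RNA-seq covered 32 libraries from C57BL/6J mice of 8 to 12 weeks. The tissue was snap-frozen cord spanning 2 to 3 mm to each side of the lesion. Sham mice were sampled at 3 and 35 days with 3 libraries each. Injured mice that received a control treatment were sampled at 3, 14 and 35 days with 3, 3 and 4 libraries, and injured mice that received Gsx1 at the same times with 3, 3 and 4 libraries. Injured mice that received Nkx6.1 were sampled at 3 and 35 days with 3 libraries each. Gsx1 and Nkx6.1 are homeodomain transcription factors of neural progenitors. The nature of the control treatment, the way in which Gsx1 and Nkx6.1 were delivered, the method of injury and the sex of the mice are not stated in the labels. Sham and injured control groups differ in both the lesion and the control treatment, so these cannot be told apart. The labels do not state that the replicates of a group are separate animals, so p-values measure only the spread between these samples.

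The libraries held 10.8 to 19.5 M counts (mega counts, median 14.6 M). Xist was above 100 CPM (read counts scaled to a common library size) in 7 libraries, 2 of which also had Ddx3y above 10 CPM, and the other 25 libraries had low Xist. The high-Xist libraries were replicates 1 and 2 of the sham group and replicate 1 of the injured control at 3 days, replicate 3 of the sham group and replicates 1 and 4 of the injured control at 35 days, and replicate 2 of Nkx6.1 at 35 days. Gsx1 itself lay between 0.06 and 0.665 CPM in the 10 Gsx1 libraries and between 0 and 0.437 CPM in the 10 injured control libraries. Nkx6-1 lay between 3.62 and 12.4 CPM in the 6 Nkx6.1 libraries and between 6.0 and 12.6 CPM in the injured controls. Neither gene was therefore separated from its controls by the RNA counted here. The summed level of 8 neuron markers, which mark the labelled tissue, was 9840 to 11600 CPM in the sham libraries.

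In the sham cord at 3 days, levels per kilobase of exon (CPM per kb, the scale used here to compare different genes) were led by Sema7a, a membrane-anchored semaphorin that binds plexin C1 and integrins. Sema7a stood at 45.5 ± 6.82 CPM per kb (SD, n = 3), and its range lay above that of the next member, Sema6b, at 24.0 ± 0.696. Sema6d, Plxnb1, Plxnb3 and Sema4d followed between 19.0 and 21.0 CPM per kb, and neighbours among those 4 overlapped in range. The low end of the order was held by secreted class 3 semaphorins, with Sema3a at 1.98, Sema3g at 1.95 and Sema3e at 1.32 CPM per kb. Plxnc1, the receptor of Sema7a, was also low, at 2.22 CPM per kb. The receptors Nrp1 and Plxnd1 ranked 20 and 24 of the 31 members, with 5.31 and 2.97 CPM per kb.

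In the injured control at 3 days that order differed. Plxnb2 moved from rank 8 at 10.2 ± 0.51 to rank 2 at 25.7 ± 4.11 CPM per kb (SD, n = 3). Plxnd1 moved to rank 8 at 12.9 ± 3.69 and Nrp1 to rank 10 at 11.3 ± 2.56 CPM per kb. In the injured control, each of these members overlapped in range with the member ranked next below, so the ranks are not exact. Sema7a kept the first rank at 40.5 ± 5.59 CPM per kb. Summed over members, the 11 plexins and neuropilins gave 101 ± 3.86 CPM per kb in sham and 134 ± 5.84 in injured control libraries at 3 days. The 20 semaphorins gave 192 ± 9.13 in sham and 178 ± 6.93 CPM per kb in injured control libraries. At 35 days the receptors summed to 90.1 ± 0.23 in sham (n = 3) and 118 ± 3.49 in injured control libraries (n = 4), and the semaphorins to 180 ± 5.98 and 175 ± 11.8 CPM per kb. The receptor sums of sham and injured control libraries did not overlap at either time, and the semaphorin sums overlapped at both. No test was run on these sums.

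**Figure D1:**
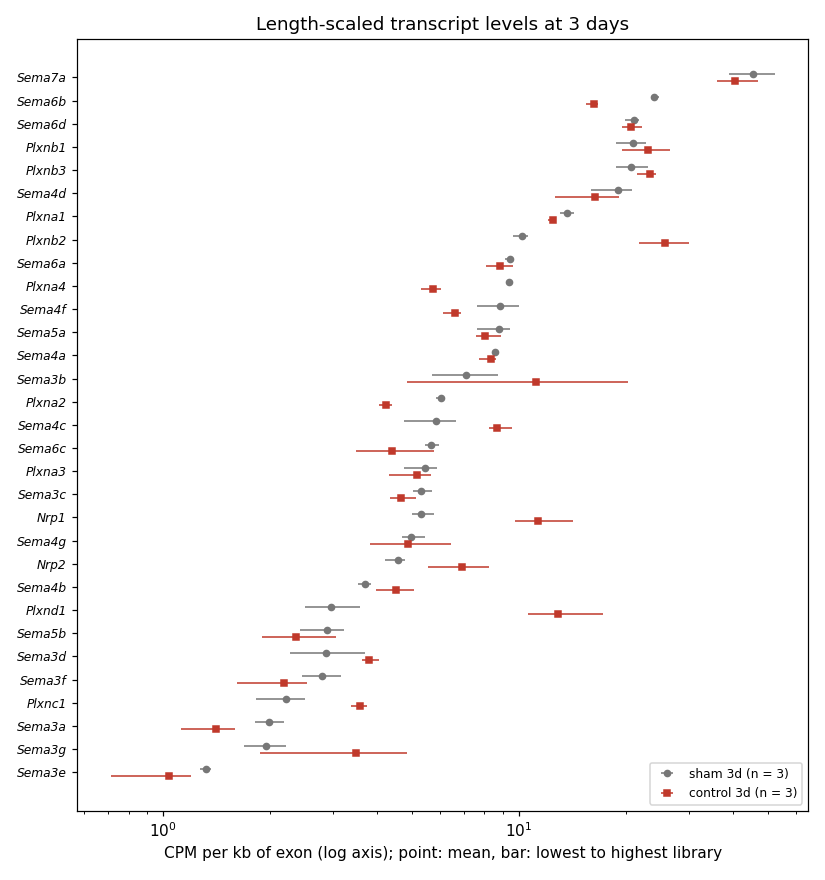
Level per kilobase of exon (CPM per kb, log axis) of each of the 31 members at 3 days in sham (circles) and injured control libraries (squares), n = 3 each, with points at the mean and bars from the lowest to the highest library. Sema7a led at 45.5 CPM per kb in sham, and Plxnb2 stood at 10.2 in sham and 25.7 CPM per kb in injured control libraries.

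The first question was which members differ between sham cord and injured cord. At 3 days, 7 of the 31 members rose and 2 fell in the injured control against sham, which is 29.0% of members. Over all genes tested, 35.5% were called at 3 days (19.5% higher and 16.0% lower). At 35 days, 8 members rose and 4 fell, or 38.7% of members, and 36.8% of all genes were called (21.3% higher and 15.5% lower). The count of members called was thus near that of genes in general. The median log2 fold change of the members was -0.07 at 3 days and 0.08 at 35 days, beside 0.01 and 0.04 over all genes. By role, 5 of the 11 receptors rose and 1 fell at each time. Of the 20 semaphorins, 2 rose and 1 fell at 3 days, and 3 rose and 3 fell at 35 days. Nrp1, Plxnb2, Plxnc1, Plxnd1 and Sema3g rose at both times, and Plxna4 fell at both.

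**Figure D2:**
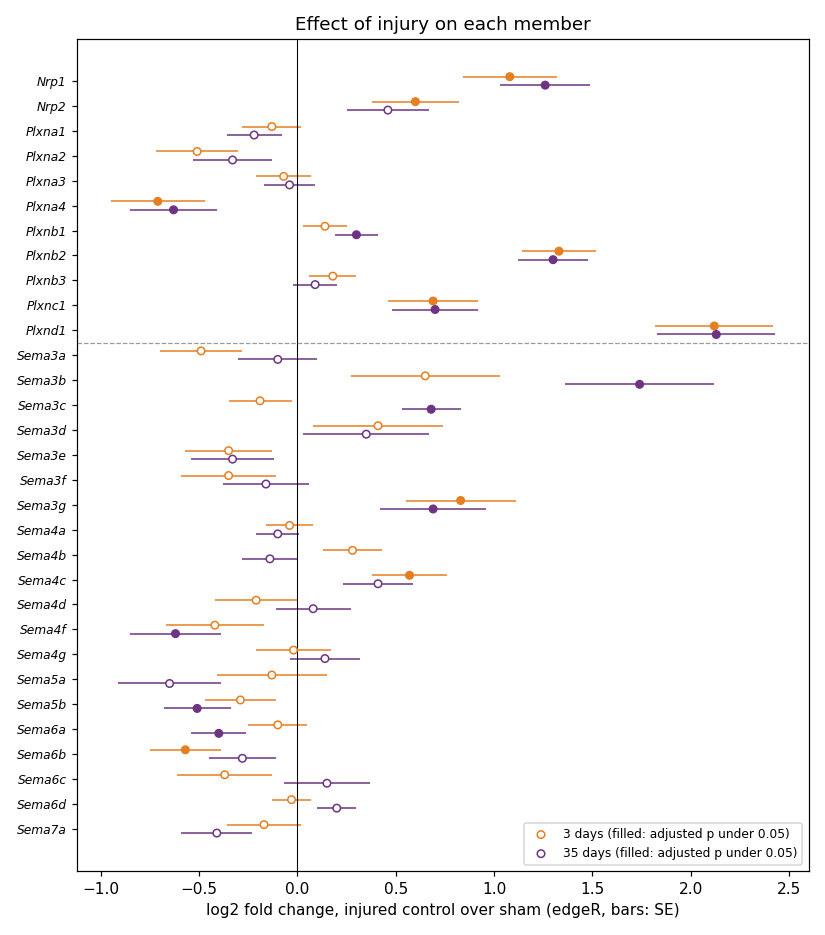
Log2 fold change of each member in the injured control against sham at 3 and at 35 days, with bars of 1 SE and filled points where the adjusted p was under 0.05. Plxnd1 was highest at both times (2.12 and 2.13), with Plxnb2 at 1.33 and 1.30 and Nrp1 at 1.08 and 1.26.

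Plxnd1, a plexin of endothelial cells that binds Sema3e directly, had the largest fold change of the family in these 2 comparisons. The gene lies on the minus strand at chr6:115954811-115995005 of GRCm38, in the GENCODE annotation. At 3 days it was at 20.8, 18.2 and 26.0 CPM in the sham libraries and at 125, 77.7 and 80.1 CPM in the injured controls. Every injured control library lay above every sham library. The difference was 4.34-fold (log2 2.12 ± 0.30 SE, adjusted p = 8.2e-06, edgeR's quasi-likelihood test with Benjamini-Hochberg adjustment, used throughout unless stated). At 35 days the sham libraries held 12.2, 10.5 and 8.45 CPM and the injured controls 35.4, 36.2, 39.2 and 71.1 CPM. The groups were again separate, with replicate 4 of the injured control standing above the other 3. The fold was 4.37 (log2 2.13 ± 0.30, adjusted p = 7.96e-06), and without replicate 4 the call held. Its ligand Sema3e was low in the same libraries and was not called, at log2 -0.35 ± 0.22 at 3 days and -0.33 ± 0.21 at 35 days.

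Plxnb2, the receptor of Sema4c (minus strand, chr15:89155549-89180788), was at 81.6, 81.0 and 74.5 CPM in sham and at 232, 168 and 196 CPM in injured control libraries at 3 days. No library of one group reached the other. The rise was 2.51-fold (log2 1.33 ± 0.19, adjusted p = 7.7e-06). At 35 days, sham held 76.2, 69.4 and 79.1 CPM and the injured control 219, 156, 177 and 187 CPM. These groups were separate too, and the rise was 2.46-fold (log2 1.30 ± 0.18, adjusted p = 5.6e-06). Sema4c itself was at 30.5, 28.3 and 21.8 CPM in sham and 38.1, 37.9 and 43.8 CPM in the injured controls at 3 days. It rose 1.49-fold (log2 0.57 ± 0.19, adjusted p = 0.0221), with separate groups, but the call was lost without replicate 3 of the sham group (adjusted p = 0.121) or of the injured control (adjusted p = 0.0631). Sema4c was not called at 35 days (log2 0.41 ± 0.18, adjusted p = 0.0797). The annotation places an antisense transcript, D430040D24Rik, on 7.27% of its exon bases, and the strand setting of the counting is not stated. Antisense transcripts also lie on 10.71% of the exon bases of Plxna1 (Gm26811), 2.68% of those of Plxnb1 (Gm7628) and 0.78% of those of Plxna4 (Plxna4os3).

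Nrp1, which binds class 3 semaphorins and vascular endothelial growth factor, (plus strand, chr8:128358604-128503363) was at 50.5, 49.1 and 56.4 CPM in sham and at 139, 95.2 and 96.0 CPM in injured control libraries at 3 days. All injured control libraries were higher. The rise was 2.12-fold (log2 1.08 ± 0.24, adjusted p = 0.00145). At 35 days, sham held 46.1, 46.9 and 42.6 CPM and the injured control 122, 80.9, 79.3 and 151 CPM. The groups were separate, and replicates 1 and 4 of the injured control lay above its other 2 libraries. The rise at 35 days was 2.40-fold (log2 1.26 ± 0.23, adjusted p = 0.000232). Its relative Nrp2, the usual coreceptor of Sema3f, was at 56.5, 55.9 and 49.7 CPM in sham and 97.6, 65.7 and 82.5 CPM in injured control libraries at 3 days. It rose 1.52-fold (log2 0.60 ± 0.22, adjusted p = 0.0356), a call lost without any 1 of the 3 sham libraries or without replicate 1 or 3 of the injured control (adjusted p 0.0635 to 0.166). Nrp2 was not called at 35 days (log2 0.46 ± 0.21, adjusted p = 0.084).

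**Figure D3:**
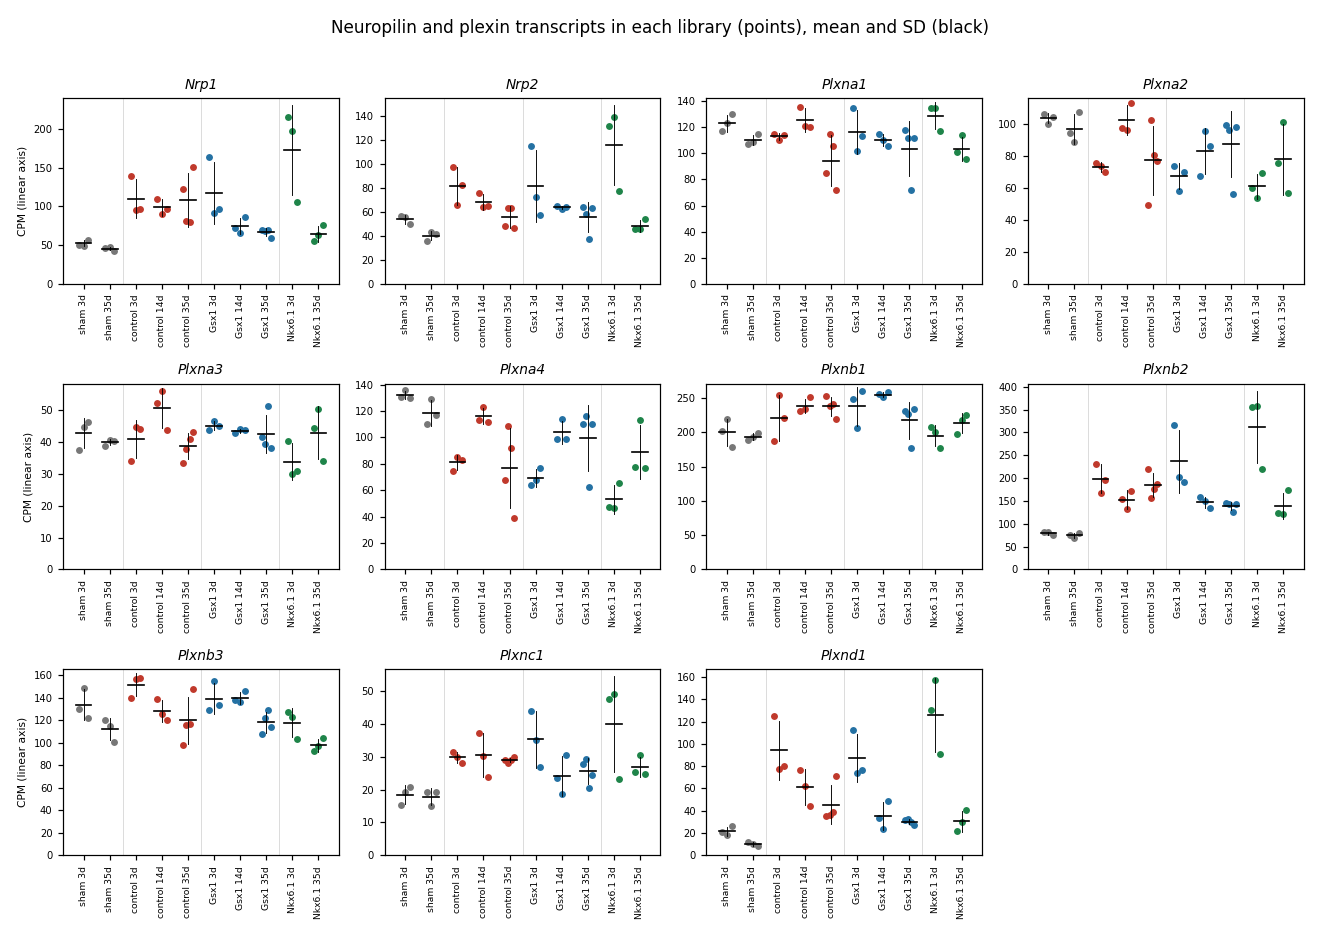
Level in CPM (linear axis) of the 11 plexins and neuropilins, by group, with points for libraries, a horizontal line at the group mean and a vertical line of 1 SD to each side. Plxnd1 lay between 8.45 and 26.0 CPM in the 6 sham libraries and at 35.4 CPM or above in the 7 injured controls of 3 and 35 days.

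Plxnc1, the receptor of Sema7a, was at 15.2, 19.4 and 20.9 CPM in sham and 31.3, 29.9 and 28.2 CPM in injured control libraries at 3 days. At 35 days the values were 19.3, 14.9 and 19.4 CPM in sham and 29.0, 28.1, 28.9 and 29.8 CPM in the injured controls. The groups were separate at both times, and the 4 injured control libraries of 35 days lay close together. Plxnc1 rose 1.61-fold at 3 days (log2 0.69 ± 0.23, adjusted p = 0.0203) and 1.62-fold at 35 days (log2 0.70 ± 0.22, adjusted p = 0.0147). The call at 3 days was lost without replicate 1 of either group (adjusted p = 0.0968 and 0.0609), and that at 35 days without replicate 2 of the sham group (adjusted p = 0.0769). Sema7a was not called at either time (log2 -0.17 ± 0.19 and -0.41 ± 0.18).

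Among plexins that work with neuropilins or class 6 semaphorins, the one that fell was Plxna4. It was at 131, 136 and 130 CPM in sham and 74.9, 85.4 and 83.2 CPM in injured control libraries at 3 days. The groups were separate, and the fall was 1.63-fold (log2 -0.71 ± 0.24, adjusted p = 0.0229). At 35 days, sham held 110, 129 and 117 CPM and the injured control 67.6, 109, 92.1 and 39.0 CPM, so the highest injured library came close to the lowest sham library. That fall was 1.55-fold (log2 -0.63 ± 0.22, adjusted p = 0.0284). Neither call held in every fit with 1 library left out. At 3 days it was lost without replicate 2 of sham or replicate 1 or 3 of the injured control (adjusted p 0.0654 to 0.105), and at 35 days without any 1 sham library or replicate 1 or 4 of the injured control (adjusted p 0.0533 to 0.114).

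The other plexins A were not called. Plxna2 had a log2 fold change of -0.51 ± 0.21 at 3 days (adjusted p = 0.0643) and -0.33 ± 0.20 at 35 days, and Plxna1 and Plxna3 lay between -0.22 and -0.04. Summed per kilobase, the 4 plexins A stood at 34.5 in sham and 27.7 CPM per kb in injured control libraries at 3 days, and the 3 plexins B at 51.7 and 72.1. Plxnb1, the receptor of Sema4d, rose at 35 days only by a small step. It was at 189, 193 and 199 CPM in sham and 253, 239, 241 and 220 CPM in injured control libraries, which did not overlap. The fold was 1.23 (log2 0.30 ± 0.11, adjusted p = 0.0304), and the call was lost without any 1 sham library or replicate 1 or 3 of the injured control (adjusted p 0.0633 to 0.0975). At 3 days Plxnb1 was at log2 0.14 ± 0.11 and was not called. Plxnb3, a receptor of Sema5a that is high in oligodendrocytes, was not called at either time (log2 0.18 ± 0.12 and 0.09 ± 0.11).

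The windows before the start sites of the 3 plexins that rose at both times are shown here. Each is the 250 bases before the gene's RefSeq start in GRCm38.p6, read 5′ to 3′ on the gene's strand, with capitals marking the GC box GGGCGG or its reverse complement. Plxnd1 is at chr6:115995006-115995255, Plxnb2 at chr15:89180789-89181038 and Plxnc1 at chr10:94944846-94945095, all on the minus strand.
Plxnd1: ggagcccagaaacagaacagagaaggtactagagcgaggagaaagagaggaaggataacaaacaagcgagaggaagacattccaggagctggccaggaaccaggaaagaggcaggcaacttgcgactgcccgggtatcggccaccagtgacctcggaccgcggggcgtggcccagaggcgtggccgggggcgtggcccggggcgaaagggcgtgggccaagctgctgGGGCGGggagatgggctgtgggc
Plxnb2: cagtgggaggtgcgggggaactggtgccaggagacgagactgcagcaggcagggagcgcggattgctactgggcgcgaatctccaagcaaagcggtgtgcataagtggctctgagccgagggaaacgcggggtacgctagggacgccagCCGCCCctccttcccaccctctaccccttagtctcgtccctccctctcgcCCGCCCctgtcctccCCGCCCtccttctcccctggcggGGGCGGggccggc
Plxnc1: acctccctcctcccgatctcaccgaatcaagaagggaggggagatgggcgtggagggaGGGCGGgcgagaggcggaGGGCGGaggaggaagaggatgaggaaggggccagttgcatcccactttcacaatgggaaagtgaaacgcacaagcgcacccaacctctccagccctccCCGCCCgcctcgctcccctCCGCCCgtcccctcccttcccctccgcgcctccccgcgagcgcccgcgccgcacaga
The GC box occurred 1 time before Plxnd1, 4 times before Plxnb2 and 4 times before Plxnc1. Of the 31 members, 26 had such a window, and 20 of those held a GC box on either strand, beside 32.7% of all 32817 windows of that length. The units differ for every motif given here. Each member counts by the 1 window nearest its GENCODE start, out of 37 windows of members, while the 32817 hold all distinct windows, alternative starts included. The windows taken for Sema3a and Sema4d lay 271370 and 37064 bases from that start. No enrichment is read from these shares. A TATA box, TATAAA, was in none of the 26, beside 12.4% of all windows. The motifs TGANTCA of AP-1 and CACGTG of the E-box were found before 1 member each, Sema4c and Sema6d, beside 6.75% and 6.02% of all windows, and GAGGAAGT of PU.1 before none, beside 2.44%. No motif overlapped another in the 3 printed windows. A match of letters is a description of the window and shows no binding.

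Among the secreted class 3 semaphorins, Sema3b and Sema3c rose at 35 days and Sema3g at both times. Sema3b was at 27.2, 18.9 and 13.1 CPM in sham and 55.2, 41.3, 63.6 and 105 CPM in injured control libraries at 35 days. The groups were separate, and replicate 4 of the injured control was the highest. The rise was 3.34-fold (log2 1.74 ± 0.38, adjusted p = 0.00118). At 3 days the groups overlapped, with 41.8, 32.6 and 27.1 CPM in sham and 40.1, 23.1 and 96.9 CPM in injured control libraries, and Sema3b was not called (log2 0.65 ± 0.38, adjusted p = 0.188). The library at 96.9 CPM, replicate 3, also had the highest summed Schwann cell markers of its group, 1060 CPM beside 307 and 444, and skeletal muscle markers of 243 CPM beside 2.49 and 15.2. The part of these cells in its Sema3b level was not tested.

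Sema3c was at 42.1, 42.6 and 38.5 CPM in sham and 69.8, 63.7, 64.8 and 64.0 CPM in injured control libraries at 35 days. These groups were separate with little spread, and the rise was 1.60-fold (log2 0.68 ± 0.15, adjusted p = 0.00119). At 3 days sham held 40.7, 37.2 and 36.1 CPM and the injured control 36.8, 31.0 and 31.9 CPM, which overlapped, and Sema3c was not called (log2 -0.19 ± 0.16). The difference between the 2 injury effects was log2 0.87 ± 0.22 and missed the threshold (adjusted p = 0.0758). DESeq2 put it past the threshold (log2 0.85, adjusted p = 0.0205), as did edgeR on the compared groups alone (log2 0.92, adjusted p = 0.0149). None of the 13 fits with 1 library left out did so (adjusted p 0.0703 to 0.209), and neither did any other alternative. Over the family, 0 of 31 members differed in their injury effect between the times, beside 0.362% of all genes, and 2 did so at an unadjusted p under 0.05, beside 9.58%.

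Sema3g, a class 3 semaphorin of vessels, was at 10.1, 8.88 and 7.66 CPM in sham and 16.8, 8.48 and 22.1 CPM in injured control libraries at 3 days. At 35 days the values were 5.79, 6.70 and 5.82 CPM in sham and 5.89, 10.9, 10.9 and 11.7 CPM in the injured controls. The groups overlapped at both times. It rose 1.78-fold at 3 days (log2 0.83 ± 0.28, adjusted p = 0.0225) and 1.62-fold at 35 days (log2 0.69 ± 0.27, adjusted p = 0.0467). The call at 3 days was lost in 4 of the 6 fits that left out a library (replicate 2 or 3 of sham, replicate 1 or 3 of the injured control, adjusted p 0.0535 to 0.179). That at 35 days was lost in 6 of 7 (every library but replicate 1 of the injured control, adjusted p 0.0729 to 0.134). Sema3a, the class's best known axon repellent, was not called (log2 -0.49 ± 0.21, adjusted p = 0.074, at 3 days and -0.10 ± 0.20 at 35 days). Sema3d, Sema3e and Sema3f were not called at either time, with log2 fold changes from -0.35 to 0.41.

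Of the membrane-bound semaphorins, 1 fell at 3 days and 3 others at 35 days. Sema6b, a ligand of plexins A, was at 94.4, 93.2 and 98.5 CPM in sham and 66.4, 65.6 and 61.0 CPM in injured control libraries at 3 days. The groups were well separated, and the fall was 1.48-fold (log2 -0.57 ± 0.18, adjusted p = 0.0161), a call lost without replicate 1 or 3 of the injured control (adjusted p = 0.0558 and 0.0744). At 35 days its groups overlapped (log2 -0.28 ± 0.17, adjusted p = 0.198). Sema6a, another ligand of plexins A, was at 84.3, 81.5 and 78.8 CPM in sham and 53.9, 69.7, 71.9 and 52.0 CPM in the injured controls at 35 days. It fell 1.32-fold (log2 -0.40 ± 0.14, adjusted p = 0.0265) with separate groups, and the call was lost without any 1 sham library or replicate 1 or 4 of the injured control (adjusted p 0.0591 to 0.107).

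Sema5b, a transmembrane semaphorin with thrombospondin repeats, was at 22.0, 19.7 and 19.6 CPM in sham and 10.3, 17.8, 16.7 and 12.3 CPM in injured control libraries at 35 days. All injured control libraries were lower, by 1.43-fold (log2 -0.51 ± 0.17, adjusted p = 0.0229), and the call was lost without replicate 1 or 3 of sham or replicate 1 or 4 of the injured control (adjusted p 0.0523 to 0.0874). Sema4f, a class 4 transmembrane semaphorin, held 53.3, 49.7 and 57.7 CPM in sham and 38.8, 41.5, 33.7 and 25.9 CPM in the injured controls at that time. Its groups were separate too, with a fall of 1.53-fold (log2 -0.62 ± 0.23, adjusted p = 0.0359) that was lost without any 1 sham library or replicate 3 or 4 of the injured control (adjusted p 0.0562 to 0.134). Sema5a, the ligand of plexin B3, missed the threshold at 35 days (log2 -0.65 ± 0.26, adjusted p = 0.0529). The 12 semaphorins called at neither time, among them Sema3a, Sema5a and Sema7a, had log2 fold changes from -0.49 to 0.41 at 3 days and from -0.65 to 0.35 at 35 days.

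**Figure D4:**
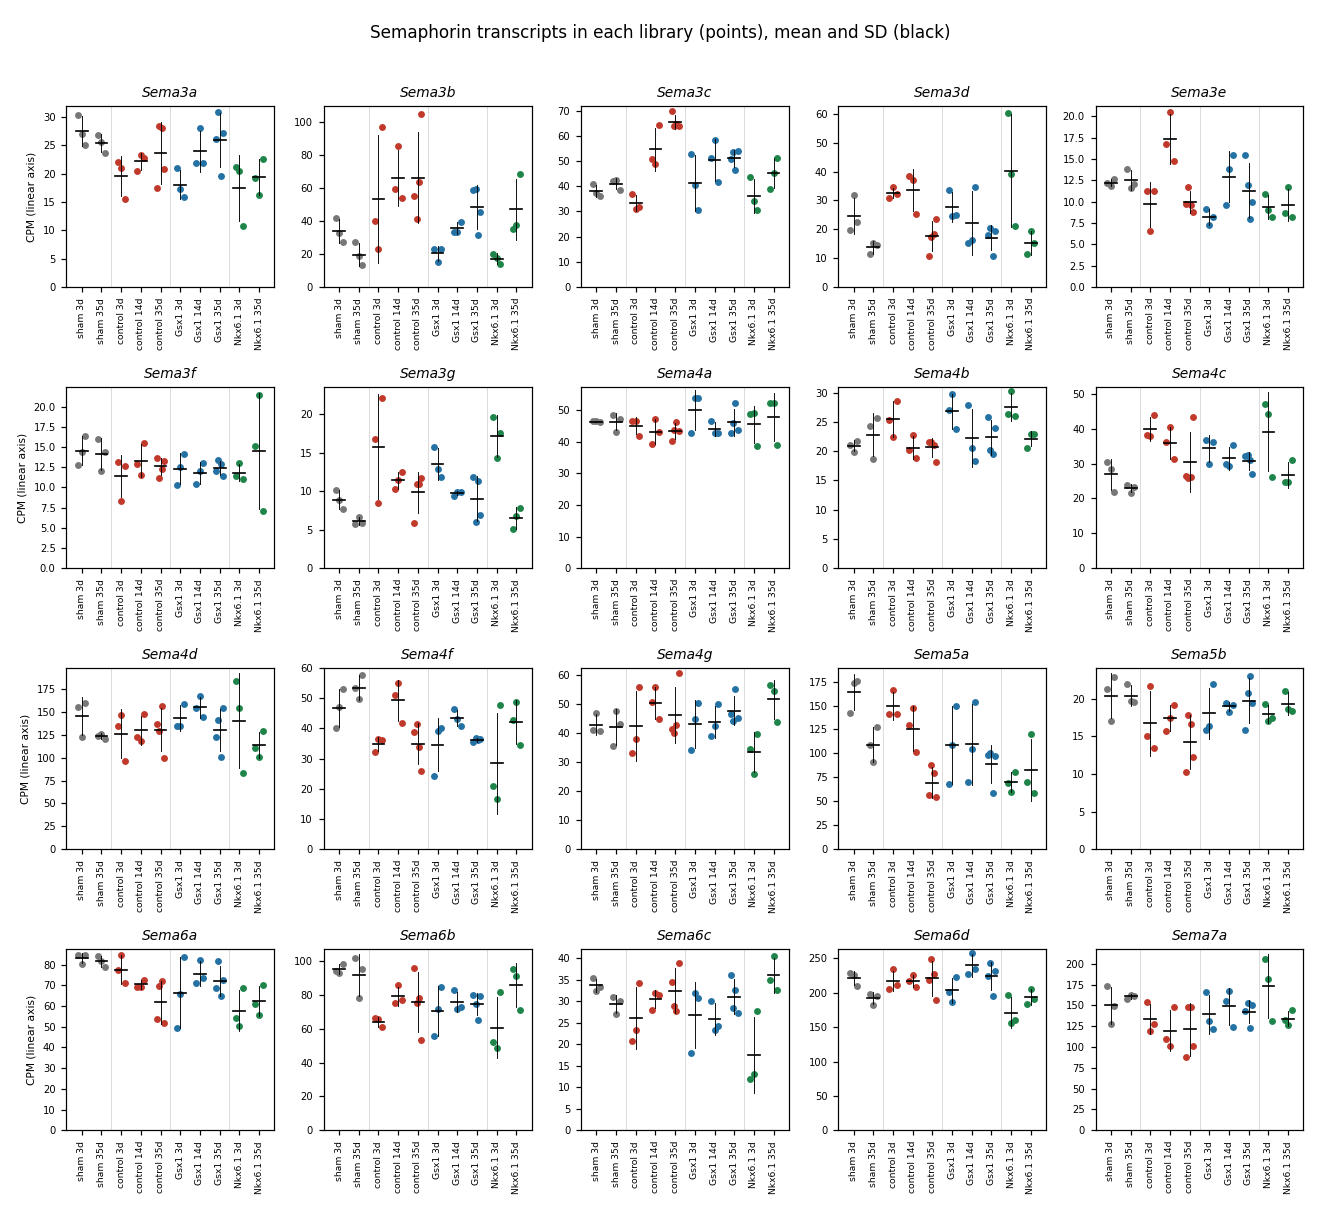
Level in CPM (linear axis) of the 20 semaphorins, by group, with points for libraries, a horizontal line at the group mean and a vertical line of 1 SD to each side. Sema3c lay between 63.7 and 69.8 CPM in the 4 injured control libraries of 35 days and between 38.5 and 42.6 CPM in the 3 sham libraries.

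Of the 9 calls at 3 days and 12 at 35 days, those of Nrp1, Plxnb2 and Plxnd1 at both times and of Sema3b and Sema3c at 35 days held in every fit with 1 library left out. Without the 2 libraries with both Xist and Ddx3y, Nrp2 and Plxnc1 lost their calls at 3 days (adjusted p = 0.0504 and 0.0855), and Plxna4, Sema3g, Sema4f, Sema5b and Sema6a at 35 days (adjusted p 0.104 to 0.154). The 25 libraries with low Xist leave 1 sham library at 3 days, which is assumed to vary like the other groups, and 2 at 35 days. In them Plxnb2, Plxnd1 and Sema4c were called at 3 days and Plxnb2 and Plxnd1 at 35 days. Fewer cells of a type and less RNA per cell cannot be told apart in bulk tissue. The summed level of macrophage and microglia markers was 237 to 275 CPM in sham and 1720 to 2810 CPM in injured control libraries at 3 days, and 214 to 238 CPM and 1600 to 3180 CPM at 35 days. Neuron markers stood at 9840 to 10600 CPM in sham and 4440 to 6160 CPM in the injured controls at 3 days, and at 11300 to 11600 and 4090 to 8230 CPM at 35 days. Endothelial markers stood at 288 to 317 and 485 to 613 CPM at 3 days, and at 170 to 196 and 278 to 421 CPM at 35 days. Fibroblast markers were 180 to 378 and 536 to 1930 CPM at 3 days, and 89.1 to 103 and 223 to 2220 CPM at 35 days. Replicate 4 of the injured control at 35 days was the highest of its group for Plxnd1, Nrp1 and Sema3b and the lowest for Plxna4 and Sema6a. It had the highest fibroblast (2220 CPM), macrophage and microglia (3180 CPM) and endothelial markers (421 CPM) of that group. Its Schwann cell (834 CPM) and oligodendrocyte markers (35500 CPM) were also the highest, and its neuron markers (4090 CPM) the lowest. Replicate 1, the next highest for Nrp1 at 122 CPM, had the lowest fibroblast markers (223 CPM) and macrophage and microglia markers of 2880 CPM. At 3 days, 8 of 8 neuron markers fell, and 8 of 9 macrophage and microglia, 7 of 8 endothelial and 6 of 6 fibroblast markers rose. At 35 days the counts were 6, 8, 6 and 6. No marker of the neuron, macrophage and microglia, endothelial or fibroblast lists was at 0 in any group. Other lists moved too. Astrocyte markers rose for 4 of 6 at both times. Oligodendrocyte precursor markers rose for 3 of 4 at 3 days and 2 at 35 days. Schwann cell markers rose for 1 of 5 and 3, T cell markers for 0 of 5 and 5, and ependymal markers for 0 of 4 and 2. Skeletal muscle markers rose for 4 of 5 and 0. Of 8 oligodendrocyte markers, 1 fell at each time. The part of these cell types in the members' changes was not tested.

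Proteins that act below or beside the receptors were read from lists that were chosen with earlier results of these data known. Of 26 plexin signalling proteins tested, 9 rose and 6 fell at 3 days and 8 rose and 5 fell at 35 days, with medians of -0.02 and 0.00 on the log2 scale. Over all genes 19.5% rose and 16.0% fell at 3 days and 21.3% rose and 15.5% fell at 35 days, with medians of 0.01 and 0.04. Fes, a tyrosine kinase that acts with plexin A, rose by log2 2.17 ± 0.31 (adjusted p = 8.2e-06) and 3.19 ± 0.32 (adjusted p = 1.3e-07) at the 2 times. Mical1, the flavin enzyme that takes actin filaments apart below plexin A, rose by log2 1.32 ± 0.22 (adjusted p = 7.24e-05) and 1.36 ± 0.22 (adjusted p = 3.71e-05). The GTPase Rap1b, a substrate of the plexin GAP domain, rose by log2 1.15 ± 0.20 and 0.93 ± 0.19, and Rras, a related GTPase, by 1.72 ± 0.29 at 35 days. The falling members included Pak1, a kinase driven by Rac, at log2 -0.87 ± 0.17 and -0.57 ± 0.15. Limk1, the kinase of the actin-severing protein cofilin, was at log2 -0.83 ± 0.23 and -0.68 ± 0.21.

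Of the 5 collapsin response mediator proteins, which carry the Sema3a signal to microtubules, 2 fell at 3 days and 3 at 35 days and none rose, with medians of -0.48 and -0.45. Dpysl2 fell by 0.48 and 0.45 on the log2 scale (SE 0.11 and 0.10), and Crmp1 by 0.64 and 0.48 (SE 0.19 and 0.18). Of 17 coreceptors and partner receptors, 11 rose and 2 fell at 3 days and 9 rose and 2 fell at 35 days, with medians of 0.88 and 0.66. The shares of all genes called were 35.5% and 36.8%, and the medians over all genes 0.01 and 0.04. Tyrobp and Trem2, the adaptor and receptor that form a complex with plexin A1 in myeloid cells, rose by log2 3.21 ± 0.40 and 3.14 ± 0.46 at 3 days and by 4.11 ± 0.40 and 4.17 ± 0.46 at 35 days. Cd72, a receptor of Sema4d on immune cells, rose by log2 2.47 ± 0.34 and 1.97 ± 0.32. L1cam, the adhesion molecule that joins neuropilin 1 in the Sema3a receptor, fell by 0.63 and 0.59 on the log2 scale (SE 0.20 and 0.18). None of the 4 neuropilin ligands outside the semaphorins that were tested was called at either time. Beside these, summed macrophage and microglia markers were higher, and summed neuron markers lower, in every injured control library than in every sham library. The part of those cells in the partners' changes was not tested.

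Time after injury was compared within the injured controls and within the sham groups. From 3 to 14 days, 2 members rose, Sema3c and Sema3e, and 3.06% of all genes were called. Sema3c was at 36.8, 31.0 and 31.9 CPM at 3 days and 50.8, 48.7 and 64.3 CPM at 14 days. The groups were separate, and the rise was log2 0.72 ± 0.16 (adjusted p = 0.0121), which was lost without replicate 3 of the 14-day group (adjusted p = 0.0857). Sema3e was at 11.2, 6.61 and 11.2 CPM at 3 days and 16.8, 20.5 and 14.7 CPM at 14 days. These groups were separate, with a rise of log2 0.85 ± 0.22 (adjusted p = 0.0335) that was lost without any 1 library of 14 days or replicate 1 or 2 of 3 days (adjusted p 0.0514 to 0.188).

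From 14 to 35 days 1 member fell, Sema3e, and 1.32% of all genes were called. It stood at 9.71, 11.7, 9.66 and 8.77 CPM at 35 days, below every library of 14 days, and the fall was log2 -0.80 ± 0.20 (adjusted p = 0.0489). This call was lost without any 1 library of 14 days or replicate 1 or 4 of 35 days (adjusted p 0.0505 to 0.233) and, with the replicate number as a block, at adjusted p = 0.11. Plxnd1, the receptor of Sema3e, was at 76.8, 62.4 and 44.4 CPM at 14 days and was called in neither step. Between the sham groups of 3 and 35 days, edgeR called 0 members, beside 0.00613% of all genes, and DESeq2 called 0. At an unadjusted p under 0.05, 4 members differed, or 12.9% beside 7.18% of all genes. Plxnd1 was among them at log2 -1.06 ± 0.31 (adjusted p = 0.356), with every sham library of 35 days below every one of 3 days. Fitted on the compared groups alone, edgeR called 4 members, all lower at 35 days, and 4.28% of all genes. These were Plxnd1 (adjusted p = 0.00795), Sema5a (0.0144), Sema3d (0.0242) and Nrp2 (0.0252).

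The last question was whether Gsx1 or Nkx6.1 moved the family in the injured cord. The comparisons of Gsx1 and of Nkx6.1 with the injured control share their control libraries, as do those of the injury. Against the injured control, edgeR called 0 members with Gsx1 at 3, 14 and 35 days, where 0.0% of all genes were called at each time, and DESeq2 also called 0 members. At an unadjusted p under 0.05, 1, 2 and 5 of the 31 members differed, beside 2.07%, 5.88% and 18.9% of all genes. Leaving out replicate 2 of the injured control at 35 days gave 2 calls, Nrp1 (log2 -0.82, adjusted p = 0.0281) and Sema5b (log2 0.59, adjusted p = 0.0331), and 11.5% of all genes were then called.

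The values of single members under Gsx1 are given without a call. Nrp1 at 35 days was at 69.1, 68.4, 69.7 and 59.6 CPM with Gsx1, below the 79.3 to 151 CPM of the injured controls and above the 42.6 to 46.9 CPM of sham. The difference from the injured control was log2 -0.70 ± 0.21 (adjusted p = 0.194). Plxnb2 was at 145, 143, 126 and 143 CPM with Gsx1 at 35 days, below every injured control library (log2 -0.41 ± 0.16, adjusted p = 0.211). Plxnd1 was at 31.4, 32.6, 29.6 and 27.3 CPM, also below every injured control library (log2 -0.59 ± 0.25, adjusted p = 0.229). At 14 days Plxnd1 was at 33.2, 24.0 and 48.4 CPM with Gsx1 and overlapped its controls (log2 -0.80 ± 0.29, adjusted p = 0.57). Sema3b was at 23.0, 15.4 and 23.0 CPM with Gsx1 at 3 days, just under the lowest control of 23.1 (log2 -1.38 ± 0.39, adjusted p = 1). At 14 days Sema3b was at 33.4, 33.5 and 39.7 CPM with Gsx1 and 59.1, 85.4 and 53.7 CPM in the injured controls, which were separate (log2 -0.90 ± 0.38, adjusted p = 0.721). Schwann cell markers were 171 to 300 CPM with Gsx1 and 307 to 1060 CPM in the injured controls at 3 days, and 167 to 567 and 679 to 1360 CPM at 14 days. Fibroblast markers were 463 to 920 CPM with Gsx1 and 2670 to 3310 CPM in the injured controls at 14 days. Macrophage and microglia markers were 1120 to 1260 and 1600 to 3180 CPM at 35 days. At the other times the groups overlapped. Fibroblast markers were 389 to 611 and 536 to 1930 CPM at 3 days, and 202 to 519 and 223 to 2220 CPM at 35 days. Macrophage and microglia markers overlapped at 3 and 14 days. Schwann cell markers were 196 to 818 and 192 to 834 CPM at 35 days. No marker of these lists was called with Gsx1 at any time. Their part in these values was not tested.

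With Nkx6.1 at 3 days edgeR called 0 members, beside 0.337% of all genes, while DESeq2 called 4, beside 2.2% of the 20916 genes it fitted. At an unadjusted p under 0.05, 10 of 31 members differed, or 32.3% beside 18.3% of all genes. The 4 that DESeq2 called were Sema3b, Sema5a, Plxnb2 and Sema6d. Sema3b was at 20.3, 17.7 and 13.9 CPM with Nkx6.1, below the 23.1 to 96.9 CPM of the injured controls (log2 -1.62 ± 0.40, adjusted p = 0.0621, and 0.0061 by DESeq2). Sema5a was at 69.3, 59.5 and 80.7 CPM with Nkx6.1 and 141, 166 and 141 CPM in the injured controls, which were separate (log2 -1.10 ± 0.29, adjusted p = 0.0699, and 0.0153 by DESeq2). Plxnb2 was at 356, 359 and 220 CPM with Nkx6.1 and overlapped the 168 to 232 CPM of its controls (log2 0.65 ± 0.18, adjusted p = 0.0838, and 0.0263 by DESeq2). Sema6d, a ligand of plexin A1, was at 197, 156 and 160 CPM with Nkx6.1 and 206, 234 and 212 CPM in the injured controls (log2 -0.35 ± 0.10, adjusted p = 0.106, and 0.0482 by DESeq2).

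Replicate 3 of Nkx6.1 at 3 days stood apart from the other 2. Nrp1 was at 215, 197 and 106 CPM, Plxnc1 at 47.7, 49.2 and 23.2 CPM, and Sema4f at 21.0, 16.6 and 47.7 CPM in the 3 libraries. Without it, 10 members were called, 4 higher (Nrp1, Nrp2, Plxnb2 and Plxnc1) and 6 lower (Plxna4, Sema3b, Sema4f, Sema5a, Sema6a and Sema6c), and 15.6% of all genes were called. Without replicate 1 of the injured control, 1 member (Sema3b, adjusted p = 0.0361) and 1.42% of all genes were called, and without any 1 of the other 4 libraries none was. Neuron markers were 2740, 2940 and 6040 CPM and macrophage and microglia markers 5610, 6030 and 3440 CPM in the 3 Nkx6.1 libraries, beside 4440 to 6160 and 1720 to 2810 CPM in the injured controls. Astrocyte markers were 6510 to 9740 CPM with Nkx6.1 and 10000 to 11600 CPM in the injured controls. Schwann cell markers were 173 to 214 and 307 to 1060 CPM. Neither sum overlapped, but edgeR called no marker of the neuron, macrophage and microglia, astrocyte, Schwann cell or skeletal muscle lists in this comparison. Skeletal muscle markers reached 435 CPM in replicate 2. The part of these cells was not tested.

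With Nkx6.1 at 35 days edgeR called 0 members and 0.0% of all genes, and DESeq2 0 members. At an unadjusted p under 0.05, 7 members differed, or 22.6% beside 12.3% of all genes. Sema3c was at 39.1, 45.4 and 51.2 CPM with Nkx6.1, below the 63.7 to 69.8 CPM of the injured controls (log2 -0.54 ± 0.15, adjusted p = 0.326). Nrp1 was at 54.6, 62.7 and 75.8 CPM with Nkx6.1 and also lay below every injured control library (log2 -0.75 ± 0.23, adjusted p = 0.335). Gsx1 and Nkx6.1 were also set against each other. No member was called at 3 days, beside 0.0797% of all genes, or at 35 days, beside 0.0%, by edgeR, and DESeq2 also called 0 at both times. At an unadjusted p under 0.05, 9 members differed at 3 days (14.2% of all genes) and 3 at 35 days (2.41% of all genes). At 3 days, leaving out replicate 3 of Nkx6.1 gave 5 calls (Nrp1, Nrp2, Plxnb2, Sema4f and Sema6c) with 11.8% of all genes, and leaving out replicate 1 of Gsx1 gave 3 (Nrp1, Nrp2 and Plxnb2) with 3.36%.

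**Figure D5:**
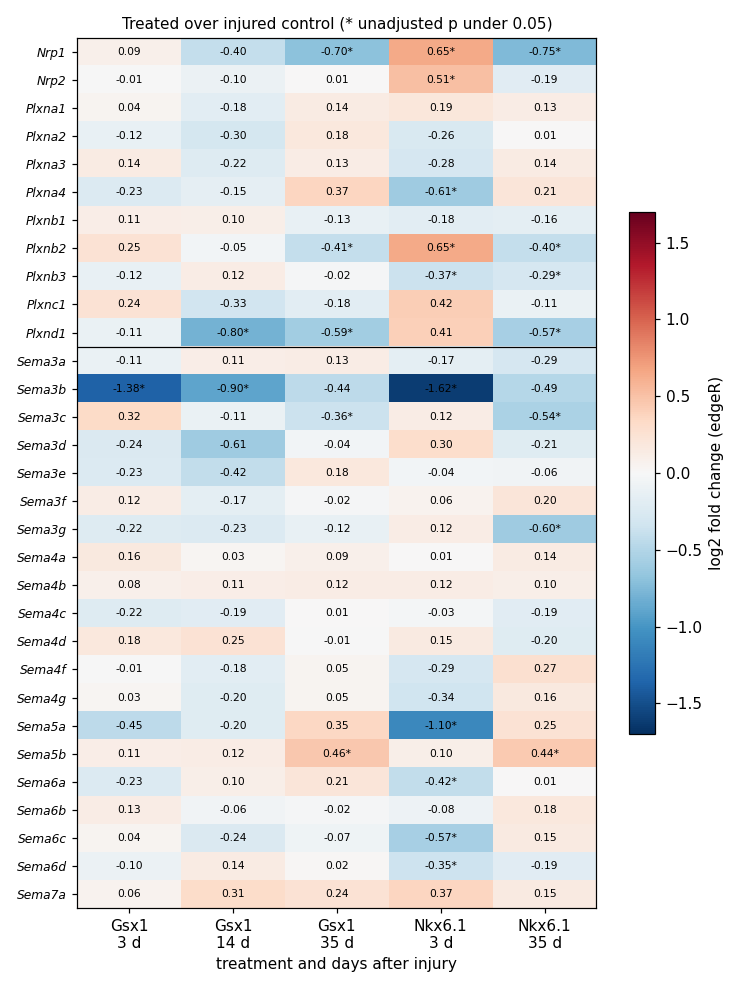
Log2 fold change (colour and printed value) of each member with Gsx1 or Nkx6.1 against the injured control at each time, with asterisks at an unadjusted p under 0.05. No member passed an adjusted p of 0.05 in edgeR, and Sema3b with Nkx6.1 at 3 days (-1.62) came nearest at adjusted p = 0.0621.

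Whether the effect of a treatment differed between 3 and 35 days was tested as an interaction, a comparison added after the data were seen. For Nkx6.1, 2 members passed, beside 2.3% of all genes, and 11 had an unadjusted p under 0.05, beside 26.1% of all genes. Nrp1 was at log2 0.65 ± 0.24 against the injured control at 3 days and -0.75 ± 0.23 at 35 days, a difference of -1.40 ± 0.33 (adjusted p = 0.039). Plxnb2 was at log2 0.65 ± 0.18 and -0.40 ± 0.17, a difference of -1.05 ± 0.25 (adjusted p = 0.0401). Both calls were lost without replicate 2 or 3 of the injured control or replicate 1 or 2 of Nkx6.1 at 3 days, and without replicate 1 or 4 of the injured control or replicate 1 or 2 of Nkx6.1 at 35 days (adjusted p 0.0664 to 0.156). Both were lost with the compared groups alone (adjusted p = 0.306 each), with the replicate block (0.0596 and 0.0531), in the low-Xist libraries (0.338 and 0.34) and without the 2 libraries with both Xist and Ddx3y (0.107 and 0.101). Without replicate 3 of Nkx6.1 at 3 days 11 members were called, and so were 21.9% of all genes. For Gsx1 edgeR and DESeq2 called 0 members, beside 0.0% of all genes in edgeR. At an unadjusted p under 0.05, 5 members differed (9.89% of all genes), and the smallest adjusted p was 0.496.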

How the data were processed

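The deposited file holds the authors' unnormalized counts of reads for each gene in each library. The submitters' processing notes name the builds GRCm38 and mm10 and the tools HTSeq, HISAT2, DESeq2 and SAMtools with no version, and the libraries were paired-end per the labels' protocols. The annotation and strand setting behind the counting are not stated, so reads of overlapping or antisense genes cannot be assigned with certainty. Of the 32 columns, 0 were left without a sample.

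From these counts a quasi-likelihood model of edgeR 4.0.16 in R 4.3.3 was fitted over all 10 groups, with TMM scaling and filterByExpr (minimum count 10, minimum total count 15), and p-values were adjusted by Benjamini-Hochberg over the 16314 genes kept. The threshold was an adjusted p of 0.05. The model had 22 residual degrees of freedom, and the biological coefficient of variation was 20.8%. CPM values use the TMM-scaled library sizes, and CPM per kb divides by the union of exons in GENCODE for GRCm38. Sequences are from RefSeq. On data simulated for the injury comparison at 3 days (16110 genes), the fit recovered 66% of genes changed by 1 and 92% of those changed by 2 on the log2 scale, and called 5 unchanged genes. The simulation changed only a small set of genes, gave the rest the same mean in all groups, and set each gene's spread by its level alone. In the data 35.5% of genes were called at 3 days, so these rates need not hold there. The alternatives were DESeq2 1.42.0, RLE size factors, no filter on low counts, the compared groups alone, the replicate number as a block, each library left out in turn, the low-Xist libraries alone and all libraries but the 2 with both Xist and Ddx3y.

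The members and gene lists were chosen with earlier results of these data known. Members called in a treatment comparison and the 14 members with the smallest p over both injury comparisons were chosen for values of single libraries. For the injury comparisons these values are printed at the times of a call, and at other times only for some members. Up to 4 partners per list and direction with the smallest p could be named. Sema3e, Sema4f, Sema5a, Sema6c and Sema6d were added after their values were seen, as were the tests of Gsx1 and Nkx6.1 by time. Total counts of 10.8 to 19.5 M per library limit the precision of the lowest members, such as Sema3e.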

Additional observations from a re-analysis of the deposited data

Results flagged for a closer look

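A Dixon test at the 95% level was applied to 62 combinations of a member and a group of 4 libraries. In 12 of them, 1 library stood apart from the other 3. Independent tests would give about 1 in 20 by chance. Members share their libraries, and 7 of the 12 were low values of 1 library, so no excess among members can be read from the count. The share over all genes was not computed. Replicate 3 of Gsx1 at 35 days was the low library for 7 receptors and ligands. It held Nrp2 at 37.1 CPM (others 58.5 to 63.8), Plxna1 at 72.2 (others 112 to 118), Plxna2 at 56.0 (others 96.2 to 99.0) and Plxna4 at 62.4 CPM (others 110 to 116). It also held Plxnb1 at 177 CPM (others 227 to 234), Plxnb2 at 126 (others 143 to 145) and Sema5a at 59.1 CPM (others 97.3 to 100). In the same group replicate 4 had Nrp1 at 59.6 CPM, below the 68.4 to 69.7 CPM of the others.

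Replicate 4 of the injured control at 35 days had Plxnd1 at 71.1 CPM (others 35.4 to 39.2) and Sema4c at 43.4 CPM (others 26.0 to 26.3), both the highest, and Sema4b at 18.2 CPM (others 21.1 to 21.6), the lowest. Replicate 1 of that group had Sema3g at 5.89 CPM, below the 10.9 to 11.7 CPM of the others and within the range of sham.

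The effect of Nkx6.1 against the injured control differed between 3 and 35 days for Nrp1 and for Plxnb2, by an interaction test. The difference was -1.40 for Nrp1 and -1.05 for Plxnb2 on the log2 scale. Each call was lost in 8 of the 13 fits with 1 library left out (adjusted p 0.0664 to 0.156) and under 4 other alternatives (adjusted p 0.0531 to 0.34). Both comparisons have their own controls, and the test was added after the data were seen.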

How the results depend on the processing

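No result reversed its direction. Of the 26 calls of members, 8 held in every fit with 1 library left out. Those of Plxnb2 and Plxnd1 after injury at 3 and 35 days held under every alternative run, of which the low-Xist fit has 1 sham library at 3 days, assumed to vary like the other groups. The share of all genes called in the same fit stands in parentheses. In the low-Xist libraries the number of members called was 3 for injury at 3 days (10.4%), 2 for injury at 35 days (7.63%), 4 for Nkx6.1 at 3 days (3.38%), 1 for the injured control at 14 against 3 days (1.48%), 0 for the injured control at 35 against 14 days (0.0119%) and 0 for Nkx6.1 by time (0.0%). With the compared groups alone it was 7 for injury at 35 days (14.4%), 5 for the injured control at 14 against 3 days (11.6%), 4 for sham at 35 against 3 days (4.28%), 1 for injury by time (0.204%), and 0 for the injured control at 35 against 14 days and for Nkx6.1 by time (0.0% each). DESeq2 called 4 members for Nkx6.1 at 3 days (2.2%), 3 for the injured control at 35 against 14 days (4.59%), 1 for injury by time (1.1%) and 4 for Nkx6.1 by time (5.71%). Without the 2 libraries with both Xist and Ddx3y the number was 7 for injury at 3 days (32.3%), 8 for injury at 35 days (19.3%), 1 for Nkx6.1 at 3 days (0.674%), 0 for the injured control at 35 against 14 days (0.206%) and 0 for Nkx6.1 by time (0.0%). With no filter on low counts it was 0 for the injured control at 35 against 14 days (0.12%). With 1 library left out, the number called ran from 4 to 11 for injury at 3 days (21.4% to 33.1%), 6 to 15 for injury at 35 days (21.2% to 43.2%), 0 to 2 for Gsx1 at 35 days (0.0% to 11.5%), 0 to 10 for Nkx6.1 at 3 days (0.0% to 15.6%) and 0 to 5 for Gsx1 against Nkx6.1 at 3 days (0.0% to 11.8%). It ran from 0 to 2 for the injured control at 14 against 3 days (0.738% to 2.55%), 0 to 4 at 35 against 14 days (0.0% to 15.9%) and 0 to 11 for Nkx6.1 by time (0.0% to 21.9%). The causes of these shifts were not tested.

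On the median, libraries with equal replicate numbers were no more alike than others. The deviations of same-numbered libraries had a median correlation of -0.00246 over 136 pairs, beside -0.00766 for the 324 pairs with different numbers. The ranges were wide, -0.513 to 0.405 and -0.507 to 0.501, and a pairing within some groups was not tested. With the replicate block the number called was 0 for the injured control at 35 against 14 days (0.0552%) and 0 for Nkx6.1 by time (0.202%), and injury at 35 days gave 9 members (29.3%). RLE size factors moved no call of a named member. Members below about 10 CPM, such as Sema3e and Sema3g, have the widest relative counting error.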
